A study of Mus musculus with 2 samples.

Results

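The cells described here carried both Pdgfra mRNA, the platelet-derived growth factor receptor of oligodendrocyte precursor cells (OPCs), and Gpr17 mRNA, a G protein-coupled receptor typical of the committed precursors (COPs) that follow them. They are called Pdgfra and Gpr17 double-positive cells, or double-positive cells for short. The cells were chosen by their measured levels of these and some other genes. A barcode entered when it held at least 500 genes and 2000 unique molecular identifiers (UMIs, each standing for 1 captured mRNA molecule), at most 10% mitochondrial UMIs, and at least 3 UMIs per 10000 of each of the 2 genes. It further needed at least 2 UMIs of the lineage factors Olig1 and Olig2 together, under 10 per 10000 of the microglial C1q genes, and under 8 per 10000 of each of 2 sets of cell division genes, 1 for mitosis and 1 for DNA replication. Of 13006 barcodes, 2585 met the rule, 1357 of 6252 in the wildtype library and 1228 of 6754 in the DREADD library.

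The series holds 2 single-cell 3′ RNA libraries from C57BL/6J mouse pups at postnatal day 8, and each library is 1 pool of animals. The WT-CNO library came from 2 wildtype pups and the DREADD-CNO library from 3 NexCre+/- pups, which carry the Cre recombinase in the Neurod6 gene (genotype label Neurod6tm1(cre)Kan) and so express Cre in excitatory neurons of the cortex. Pups of both groups received the virus pAAV-hSyn-DIO-hM4D(Gi)-mCherry at P0, which encodes a Cre-dependent inhibitory designer receptor (DREADD) under a neuronal promoter, and oral clozapine-N-oxide (CNO), its ligand, in 2 doses a day from P2 to P8. Cortex and corpus callosum were pooled within each group, dissociated with papain, and enriched on magnetic beads against PDGFRα and O4. The receptor is therefore placed in neurons, and the cells measured are the glia around them. Library and group cannot be told apart, and no value below has a replicate check.

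OPCs divide, carry the proteoglycan NG2 and glutamate receptors, and are held in their state by growth factor and Notch signals. When an OPC commits to differentiation it leaves the cell cycle, loses Pdgfra, passes through a short stage with high Gpr17, and then switches on myelin genes as a newly formed oligodendrocyte. Cells with both mRNAs can mark the overlap of the 2 programs, but low Gpr17 is also found in OPCs, so the 2 genes alone do not place a cell within this sequence.

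The double-positive cells were set beside cells that met every other criterion and had only 1 of the 2 genes at 3 per 10000. There were 849 Pdgfra-only cells in WT-CNO and 721 in DREADD-CNO, and 696 and 1374 Gpr17-only cells. Double-positive cells had a median of 14.5 Pdgfra UMIs per 10000 in the wildtype and 12.3 in the DREADD library, beside 14.3 and 12.6 in Pdgfra-only cells. Their median Gpr17 level was 5.44 and 5.18, beside 11.5 and 10.8 in Gpr17-only cells and 1.66 and 1.86 in Pdgfra-only cells. These levels were used to choose the cells and are given as a description. Double-positive cells thus held as much Pdgfra as Pdgfra-only cells, with Gpr17 between that of the other 2 classes.

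**Figure D1:**
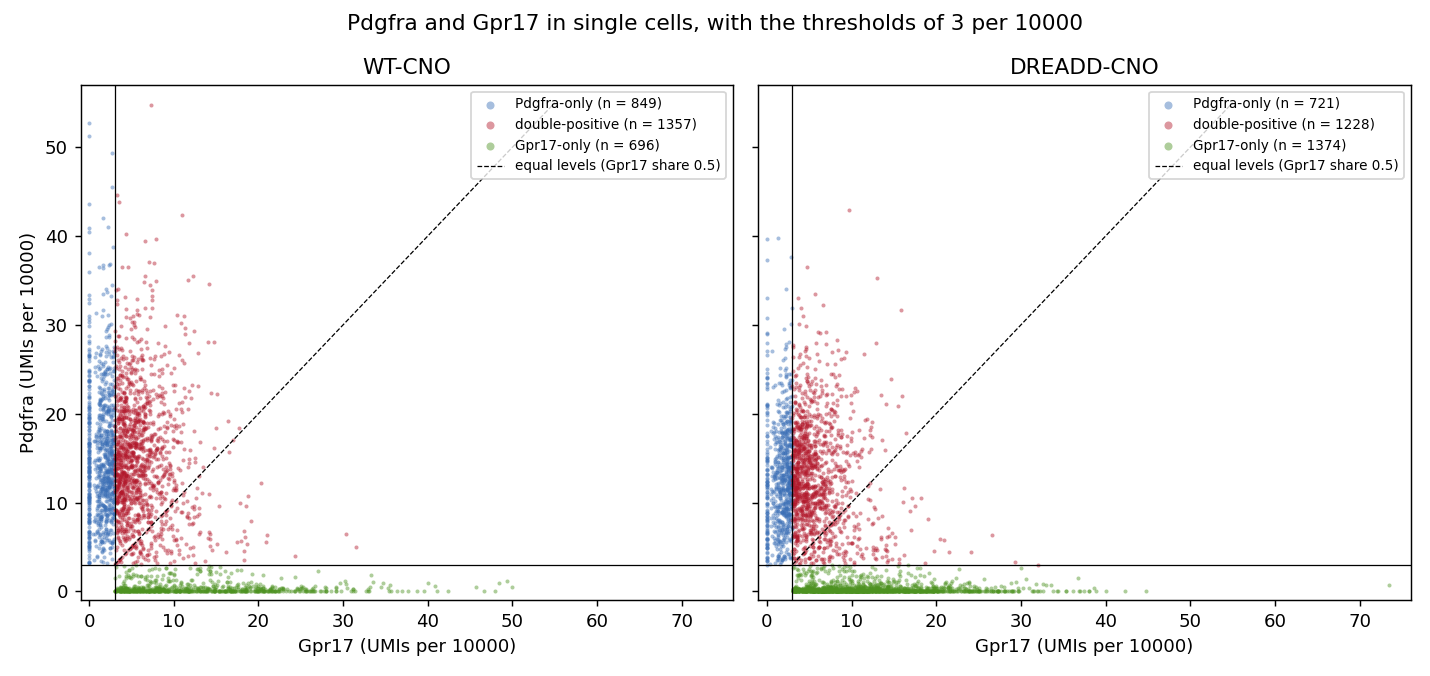
Each point is 1 cell, with Gpr17 on the x axis and Pdgfra on the y axis in UMIs per 10000, in 1 panel per library; the straight lines mark the threshold of 3 for each gene and the dashed line equal levels. Most double-positive cells lie above the line of equal levels, and 174 cells of WT-CNO and 198 of DREADD-CNO lie on or below it.

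The Gpr17 threshold ran through a continuous distribution. In WT-CNO 303 double-positive cells (22.3%) and in DREADD-CNO 313 (25.5%) had Gpr17 between 3 and 4 per 10000, and 337 (39.7%) and 320 (44.4%) of Pdgfra-only cells lay just outside, between 2 and 3. Levels below are UMIs per 1000000 (CPM), from the UMIs summed over a class in 1 library. Just inside the threshold Bcas1, a gene of newly forming oligodendrocytes, stood at 422 CPM in WT-CNO and 403 in DREADD-CNO, and just outside it at 358 and 323. Enpp6, a choline phosphodiesterase of the same stage, stood at 52.3 and 56.5 CPM inside and 38.9 and 42.4 outside. Ptprz1, a receptor phosphatase of OPCs, stood at 4719 and 4387 CPM inside and 4723 and 4420 outside. Gpr17 UMIs also occurred where the gene should be absent: 43.8% and 34.5% of microglial barcodes held at least 1, and 7.59% and 2.55% passed the threshold of 3 per 10000. With every cell thinned to 5000 UMIs, Gpr17 was detected in 22.4% and 15.3% of microglial barcodes, in 60.7% of Pdgfra-only cells of both libraries, and in 94.9% and 95.6% of double-positive cells.

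Depth differed between the libraries and between the classes. WT-CNO held 78794300 UMIs and DREADD-CNO 108912581, and the median double-positive cell 12242 and 16717.5 UMIs, the median Pdgfra-only cell 8990 and 14343, and the median Gpr17-only cell 31705 and 30278.5. Cells with under 3% ribosomal protein UMIs made up 67.5% of double-positive cells in WT-CNO and 45.0% in DREADD-CNO. The sexes were unequal: 83.3% of double-positive cells in WT-CNO held Xist UMIs and no Y-linked UMIs, as female cells do, and 24.9% in DREADD-CNO, while 10.6% and 61.8% held Y-linked UMIs and no Xist. The libraries shared 12 barcodes, which included 5 double-positive cells of WT-CNO and 3 of DREADD-CNO. The doublet caller Scrublet in its automatic mode called 0 of 4272 and 5 of 4986 barcodes and so did not work. The 168 and 206 barcodes with the highest scores were therefore used as a check, and they held 7.37% and 4.48% of double-positive cells, 3.42% and 2.36% of Pdgfra-only cells and 0.575% and 2.55% of Gpr17-only cells.

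Markers of other cell types were summed by list in double-positive cells. Summed microglial markers stood at 56.4 CPM in WT-CNO and 46.7 in DREADD-CNO, against 24248 and 23896 in the microglial barcodes. Endothelial markers summed to 3.0 and 5.1 CPM, pericyte markers to 4.1 and 4.4, and fibroblast markers to 14.1 and 13.5. Neuronal markers summed to 488 and 491 CPM, beside 439 and 412 in Pdgfra-only and 1416 and 1444 in Gpr17-only cells. Of these 14 genes Slc17a7, the glutamate transporter of cortical excitatory neurons, was at 0 in both libraries. Neurod6 and Neurod2 were at 0 in WT-CNO only. Other members were present: by the rule given below, Snap25, Syt1 and Gad1 were higher than in Gpr17-only cells. Map1b was higher than in Pdgfra-only cells and lower than in Gpr17-only cells. Astrocyte markers summed to 594 and 664 CPM, beside 623 and 811 in Pdgfra-only cells, a list that holds Sox9 and Slc1a3, which OPCs express too. Haemoglobin and other erythroid markers summed to 208 and 231 CPM.

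Double-positive cells took a smaller share of the cells with either gene in the DREADD library, and so did Pdgfra-only cells. Of the cells with either gene, 46.8% (1357 of 2902; exact 95% interval 44.9 to 48.6) were double-positive in WT-CNO and 37.0% (1228 of 3323; 35.3 to 38.6) in DREADD-CNO, a difference of -9.81 points (-12.2 to -7.35). Of Pdgfra-positive cells, 61.5% and 63.0% were double-positive, a difference of 1.49 points whose interval (-1.46 to 4.44) includes 0. Of Gpr17-positive cells, 66.1% and 47.2% were double-positive, a difference of -18.9 points (-21.7 to -16.1). Pdgfra-only cells were 29.3% of the cells with either gene in WT-CNO and 21.7% in DREADD-CNO, a difference of -7.56 points (-9.73 to -5.39). The Gpr17-only share moved the other way, from 24.0% in WT-CNO to 41.3% in DREADD-CNO. Thinned to 5000 UMIs, double-positive cells were 46.2% and 35.5% of the cells with either gene and 61.1% and 60.4% of Pdgfra-positive cells. Bead enrichment also sets these shares, and fewer cells of 1 class and more of another cannot be told apart in a share. Intervals here and below cover counting error only. With only ribosomal-poor cells the difference was -2.005 points and with only ribosomal-rich cells -6.29 points.

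In their transcripts the double-positive cells lay next to the Pdgfra-only cells and far from the Gpr17-only cells. A gene was called different between 2 classes when 1 class exceeded the other by 1.5 times or more in both libraries, with a 95% counting interval that left out 1 and with no less than 20 CPM and 100 UMIs on the higher side. Against Pdgfra-only cells, 21 genes (0.285% of 7366 tested) were higher in double-positive cells and 2 (0.0272%) lower. Against Gpr17-only cells, 1783 (22.7% of 7865) were higher and 1371 (17.4%) lower. Under another scaling, by trimmed mean of M values, the Gpr17-only comparison split into 1356 higher and 2384 lower, and by median of ratios into 1473 and 2022. These scalings shifted all ratios of double-positive over Gpr17-only cells by between -0.26 and -0.16 on the log2 scale. Not 1 gene (0% of 7275 tested) was higher than in both other classes in both libraries, and not 1 was lower than in both. Of the 21 genes higher than in Pdgfra-only cells, 20 were also higher in Gpr17-only than in Pdgfra-only cells. As the classes were cut from the same cells by 2 of their genes, these counts describe the classes and test nothing.

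The 21 genes included genes of commitment and early myelination at low levels. Bmp4, a growth factor made by committed precursors, went from 16.2 CPM in Pdgfra-only to 53.9 CPM in double-positive cells of WT-CNO, a ratio of 3.33 (2.81 to 3.97), and from 22.9 to 70.6 CPM in DREADD-CNO, a ratio of 3.08 (2.69 to 3.53). Enpp6 went from 23.7 to 72.5 CPM and from 32.3 to 100.4 CPM, ratios of 3.05 and 3.11. St18, a zinc-finger transcription factor, had ratios of 2.64 and 3.24, and Myrf, the transcription factor that drives myelin genes, 2.08 and 2.04. Against the level of Gpr17-only cells these values were low: Enpp6 stood there at 1181 and 1272 CPM.

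Neu4, a sialidase that acts on polysialic acid, went from 41.6 to 76.5 CPM in WT-CNO, a ratio of 1.84 (1.65 to 2.06), and from 50.2 to 108 CPM in DREADD-CNO, a ratio of 2.15 (1.96 to 2.36). Mycl, a transcription factor of the Myc family, had ratios of 1.97 and 1.79, and Cdkn1c, the inhibitor p57 that stops the cell cycle, 2.83 and 1.66. Bcas1 had 1.68 and 1.90. Mag, an adhesion protein of myelin, went from 8.93 to 21.1 CPM and from 17.3 to 33.6 CPM. Plxnb3, a semaphorin receptor, Cldn11, the tight junction protein of myelin, and Map1b, a microtubule-binding protein, were also among the 21. Susd5, a sushi domain protein, was the exception to the order of the classes, with 22.8 and 22.5 CPM in double-positive cells against 11.6 and 11.97 in Pdgfra-only and 19.99 and 20.9 in Gpr17-only cells. Grm3, a metabotropic glutamate receptor, was lower than in Pdgfra-only cells, at 16.9 against 29.8 CPM and 16.9 against 32.1 CPM, and the gene model Gm29521 was the other lower one.

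How many of these differences held depended on the subset of cells. Among cells with at least 8000 UMIs 29 genes were higher, which included all 21. Without the barcodes with the highest Scrublet scores, 8 genes were higher, which kept Gpr17, Bmp4, Enpp6, Neu4, Mycl and Susd5. Within female cells 2 genes were higher and within male cells 4, and those shared with the 21 were Neu4 and Gpr17. Female cells of DREADD-CNO numbered 306 double-positive and 181 Pdgfra-only, and male cells of WT-CNO 144 and 92. In sets that small the UMI minimum of the rule limits which genes can pass. In female cells the order even turned for some: in the library nearer 1 the ratio was 0.579 for Enpp6 and 0.766 for St18. Within ribosomal-poor cells 4 were higher, with Bmp4 and Gpr17 shared, and within ribosomal-rich cells 61, of which 19 were shared.

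The sums of several of these genes came from a minority of the cells. Bmp4 UMIs were found in 18.1% of double-positive cells of WT-CNO and 30.05% of DREADD-CNO, against 9.07% and 20.8% of Pdgfra-only cells, 89.4% and 96.1% of Gpr17-only cells, and 6.25% and 17.9% of microglial barcodes, which should lack the gene. Enpp6 was found in 13.04% and 22.6%, close to the 15.6% and 18.7% of microglial barcodes, whose median depth was 15853 and 15665 UMIs. Mag, at 7.81% and 13.9%, was likewise below the microglial shares of 14.3% and 17.4%. The shares of Mag, and that of Enpp6 in WT-CNO, lie below the microglial ones. The sums of both genes were nevertheless higher than in Pdgfra-only cells, and RNA of other cells as a source was not tested. Neu4 was above its microglial shares, with UMIs in 40.2% and 58.7% of double-positive cells against 9.82% and 11.9% of microglial barcodes. Of Pdgfra-only cells 27.8% and 37.6% held Neu4 UMIs. Cdkn1c was found in 17.3% and 25.9% of double-positive cells against 5.36% and 12.3% of microglial barcodes.

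By list, levels close to those of Pdgfra-only cells prevailed. The OPC identity list had a median log2 ratio of 0.07 in WT-CNO and 0.06 in DREADD-CNO over 16 genes, the AMPA receptor list -0.06 and 0.06 over 9, and the ion channel list -0.08 and -0.01 over 21. The growth factor signalling list had -0.12 and -0.10 over 14 genes, of which 12 were lower in value in both libraries. No member of these 4 lists was past the rule, which so few genes passed that this says nothing of the lists. Cspg4, which encodes NG2, stood at 490 and 445 CPM, against 493 and 439 in Pdgfra-only and 31.99 and 25.5 in Gpr17-only cells. Of the COP list 6 of 17 were higher (Gpr17, which the rule used, and Bmp4, Neu4, Bcas1, Mycl and Enpp6) with a median log2 ratio of 0.32 in WT-CNO and 0.49 in DREADD-CNO, beside 0.04 and 0.01 over all genes tested. Of the myelin list 3 of 9 were higher, and of the newly formed oligodendrocyte list 2 of 9. Myrf was the only member of 14 differentiation factors that was higher.

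Against Gpr17-only cells the members of these lists split in both directions. Of OPC identity genes 11 of 16 were higher and 2 lower in double-positive cells, of growth factor signalling genes 12 of 14 were higher (Pdgfra, which the rule used, is 1 of the higher genes in both lists), of ion channel genes 18 of 21, and of Notch pathway genes 7 of 8. Chl1, a cell adhesion molecule, stood at 423 CPM in double-positive and 8.72 in Gpr17-only cells of WT-CNO and at 411 and 7.13 CPM in DREADD-CNO. Col19a1, a collagen, had ratios of 56.9 and 38.1, Inpp4b, a phosphoinositide phosphatase, 32.4 and 44.5, and Slc1a3, the glutamate transporter GLAST, 27.8 and 25.3. Unc13c, of the family of synaptic vesicle priming proteins, had 31.3 and 38.0. On the other side all 11 measured myelin genes, 16 of 19 cytoskeleton genes and 13 of 18 COP genes were lower. Mag stood at 21.1 against 566 CPM in WT-CNO and 33.6 against 406 CPM in DREADD-CNO, and Bcas1 at 546 against 4015 and 616 against 4159. Epcam, an epithelial adhesion molecule, had ratios of 0.0606 and 0.0595. The 3 COP genes on the higher side were Sox11, Dll3 and Gap43, and 23 of 24 ribosomal protein genes were lower.

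The AMPA receptor subunits, which form the fast glutamate receptor of OPCs, separated double-positive from Gpr17-only cells to different degrees. Gria1 stood at 143 CPM against 12.5 in WT-CNO, a ratio of 11.4 (10.1 to 12.99), and at 125 against 7.83 in DREADD-CNO, a ratio of 15.9 (14.2 to 17.9). Gria2, the subunit that limits calcium entry, had ratios of 2.29 and 2.07, and Gria3 3.10 and 3.01. Gria4 was close to equal, at 734 against 688 CPM and 666 against 677 CPM. Of 9 genes of AMPA receptors and their auxiliary proteins 7 were higher, the others called being Cacng4, Cacng7, Cnih2 and Grip1. Against Pdgfra-only cells no AMPA receptor gene was past the rule, which 0.285% of all genes tested passed as higher and 0.0272% as lower. With so few genes past it, this says nothing of the receptors.

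The label given to these cells, a transition from OPC to COP, was checked against the markers Dll3, Draxin and Gap43, which the rule did not use. Dll3, a divergent Notch ligand that acts inside the cell, stood at 65.9 CPM in double-positive cells of WT-CNO, above 58.8 in Pdgfra-only and 27.4 in Gpr17-only cells, and at 45.7, 37.4 and 23.4 CPM in DREADD-CNO. It was thus highest in double-positive cells of both libraries, by less than 1.5 times. Draxin, a secreted axon guidance protein, stood at 7.4 and 6.9 CPM, under the minimum level. Gap43, a growth cone protein, stood at 131 and 126 CPM, lower than the 148 and 162 CPM of Pdgfra-only cells. None of the 3 was past the rule as a marker, and the class as a whole was closer to an OPC than its label says. A measure of place gives the same picture. With the Pdgfra-only level of a gene set at 0 and its Gpr17-only level at 100, double-positive cells had a median position of 7.12 in WT-CNO and 4.61 in DREADD-CNO over the 3149 genes that differed between those 2 classes.

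**Figure D2:**
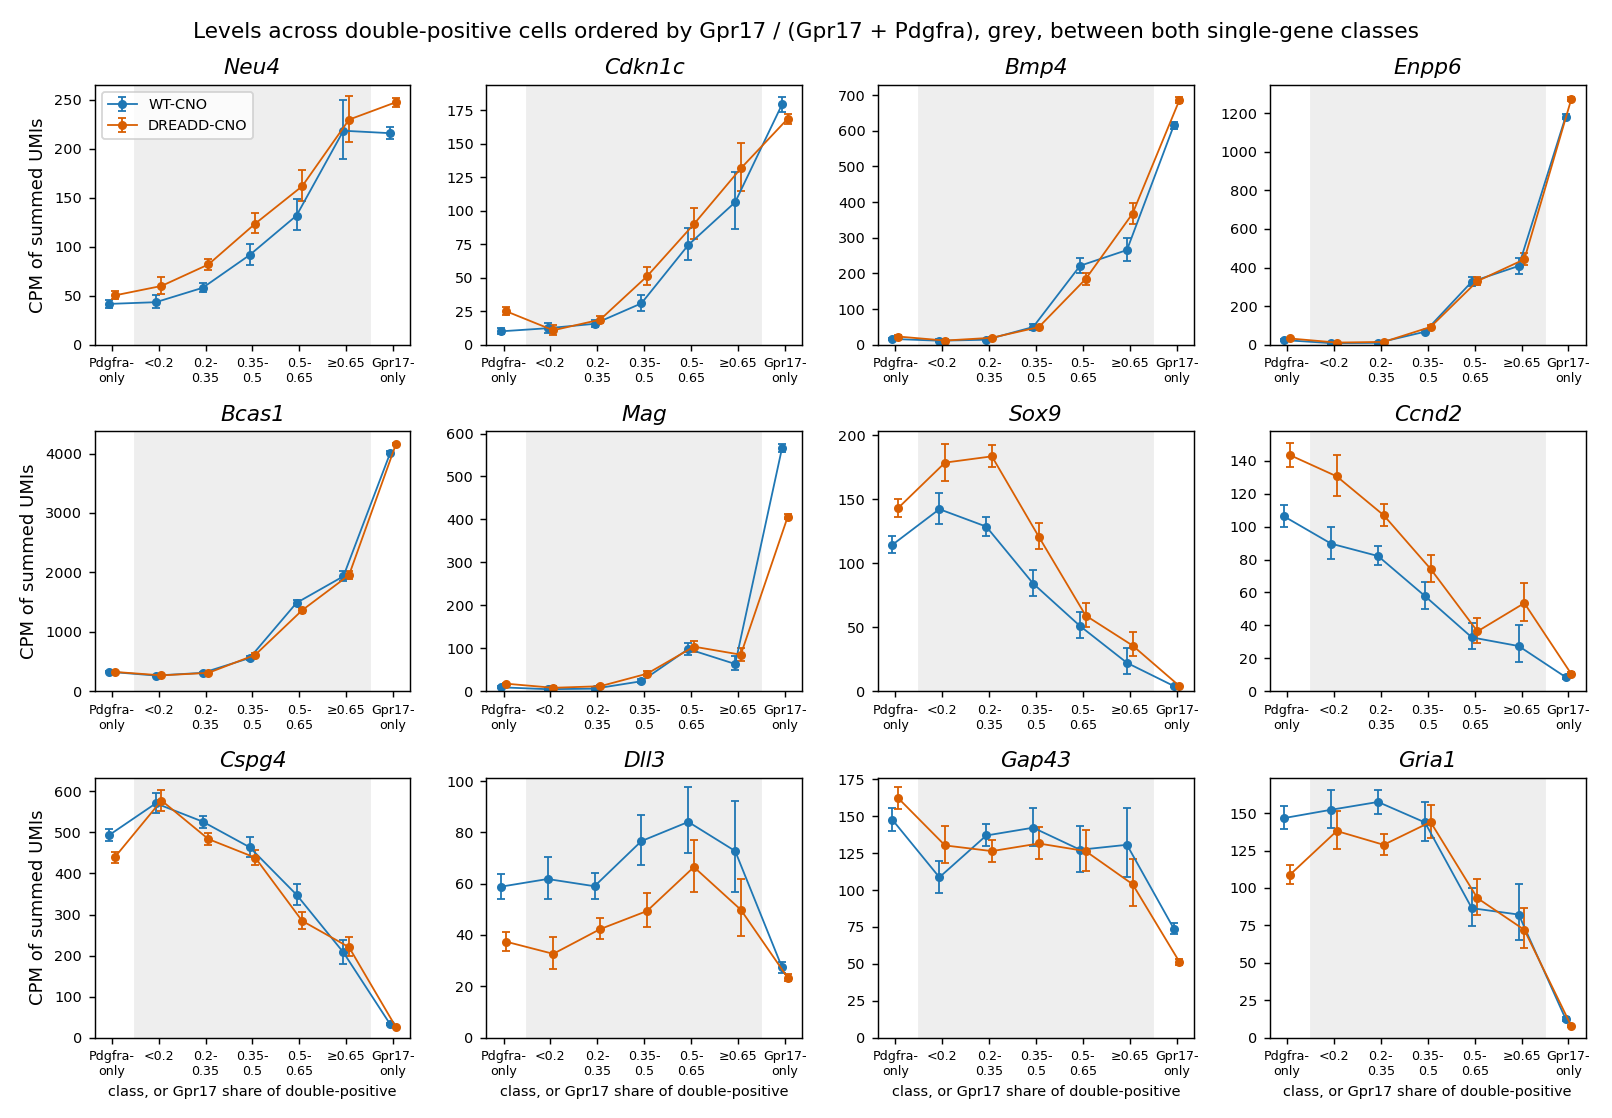
CPM of 12 genes on the y axis, 1 panel each and 1 line per library, over Pdgfra-only cells, 5 groups of double-positive cells ordered by the Gpr17 share of their Pdgfra and Gpr17 UMIs, and Gpr17-only cells on the x axis; bars are 95% counting intervals. Neu4, Cdkn1c, Bmp4, Enpp6, Bcas1 and Mag are highest in Gpr17-only cells, Sox9, Ccnd2 and Cspg4 are high in the groups with a low Gpr17 share, and Dll3 peaks within the double-positive groups.

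The double-positive cells were not alike, and their spread followed the balance of the 2 genes. They were divided, after the data had been seen, into cells with Gpr17 at least as high as Pdgfra, called Gpr17-leaning, and the rest, called Pdgfra-leaning. The Gpr17-leaning cells were 12.8% (174 cells; 11.1 to 14.7) of double-positive cells in WT-CNO and 16.1% (198 cells; 14.1 to 18.3) in DREADD-CNO, a difference of 3.30 points (0.589 to 6.04). Of all cells with either gene they were 6.00% and 5.96%. Their median depth was 11735.5 and 19569.5 UMIs, and 60.3% and 37.4% of them were ribosomal-poor. Scrublet's highest scores fell on 10.3% and 18.2% of them, against 6.93% and 1.84% of Pdgfra-leaning cells. Against Pdgfra-leaning cells, 240 genes (3.31% of 7260) were higher in both libraries and 310 (4.27%) lower, and 235 and 298 of these differed in the same direction between Gpr17-only and Pdgfra-only cells.

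Several genes of commitment were among the 240 that were higher in Gpr17-leaning cells. Bmp4 went from 20.5 CPM in Pdgfra-leaning to 235 CPM in Gpr17-leaning cells of WT-CNO and from 25.8 to 255 CPM in DREADD-CNO, and Cdkn1c from 17.9 to 84.5 CPM and from 25.7 to 106 CPM. Neu4 went from 61.4 to 159 CPM and from 88.5 to 188 CPM. Frmd4a, a scaffold protein of cell polarity, had ratios of 6.84 and 5.16, and Epb41l2, a membrane cytoskeleton linker, 5.58 and 5.13. Of the COP list 10 of 18 were higher, Gpr17 being 1 of them by the split itself, of newly formed oligodendrocyte genes 7 of 9, of myelin genes 6 of 9 and of cytoskeleton genes 11 of 16, with none lower. The differentiation factors Myrf, Nkx2-2, Sox8, Zfp488, Tcf7l2 and Zeb2 were higher, 6 of 14.

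Detection per cell differed among the genes of commitment and myelination. Bmp4 was found in 44.8% and 62.1% of Gpr17-leaning cells, Neu4 in 63.2% and 73.7%, and Cdkn1c in 37.9% and 54.5%, all above the microglial shares given before for Bmp4 and Neu4 and the 5.36% and 12.3% of Cdkn1c. Enpp6 was found in 19.5% and 36.4%, and Mag in 13.2% and 21.7%, near the microglial 14.3% and 17.4%. In the sums, Enpp6 went from 21.0 to 352 CPM and from 34.2 to 373 CPM, and Mag from 8.93 to 87.1 CPM and from 18.4 to 96.4 CPM. The large sums of Enpp6 and Mag therefore came from fewer cells than those of Bmp4, Neu4 and Cdkn1c. Without the highest Scrublet scores, Bmp4 stood at 164 and 111 CPM, Enpp6 at 263 and 123, and Mag at 51.0 and 49.0 in Gpr17-leaning cells, but Neu4 at 157 and 178. With those barcodes left out, 103 genes (1.43% of 7205) were higher and 173 (2.4%) lower. The part of doublets in these sums was not tested beyond this comparison.

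Among the 310 genes lower in Gpr17-leaning cells were factors of progenitors and of the cell cycle. Sox9, a transcription factor of glial progenitors, went from 123 to 41.9 CPM in WT-CNO and from 166 to 50.1 CPM in DREADD-CNO, and was found in 25.9% and 33.8% of Gpr17-leaning cells against 46.1% and 55.4% of all double-positive cells. Ccnd2, the cyclin D2 that moves cells into the cycle, went from 79.0 to 31.0 CPM and from 103 to 43.0 CPM. Igfbp2, an insulin-like growth factor binding protein, had ratios of 0.302 and 0.345, Rasl11a, a small GTPase of the Ras family, 0.235 and 0.273, and Moxd1, a monooxygenase-like protein, 0.252 and 0.242. All of these were low in both libraries by a similar factor.

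The lists of growth factor and Notch signalling had members among the 310 lower genes, as had other lists. Of 15 growth factor signalling genes 8 were lower and none higher, with Pdgfra, which the split used, and Fgfr1 as receptors, Spry1, Spry2, Spry4 and Spred2 as feedback inhibitors, Dusp6 as a phosphatase and Etv4 as a target factor of the pathway. Spry4 went from 54.1 to 26.4 CPM and from 58.2 to 25.2 CPM, and Etv4 from 105 to 54.8 CPM and from 104 to 60.5 CPM. Of 8 Notch pathway genes 4 were lower, the targets Hes1, Hes5 and Nrarp and the inhibitor Numb. Hes1 went from 36.5 to 13.5 CPM and from 39.6 to 19.0 CPM. Among 14 factors of OPC maintenance 6 were lower, Sox9, Hes1, Hes5, Id2, Nfib and Etv4. Of the glutamate receptors, Gria1 was the only AMPA receptor gene of 9 that was lower, at 85.1 against 154 CPM and 85.0 against 135 CPM. Ion channels had 4 lower members of 21 and NMDA and kainate receptor genes 3 of 9, with none higher. Proteoglycan and matrix genes had 4 lower of 15 and 2 higher, Tnr and Chst3. Over all genes tested 4.27% were lower and 3.31% higher. Of 20 cholesterol synthesis genes none was past the rule, which over all genes held for 3.31% and 4.27%, and 18 were lower in value in both libraries.

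**Figure D3:**
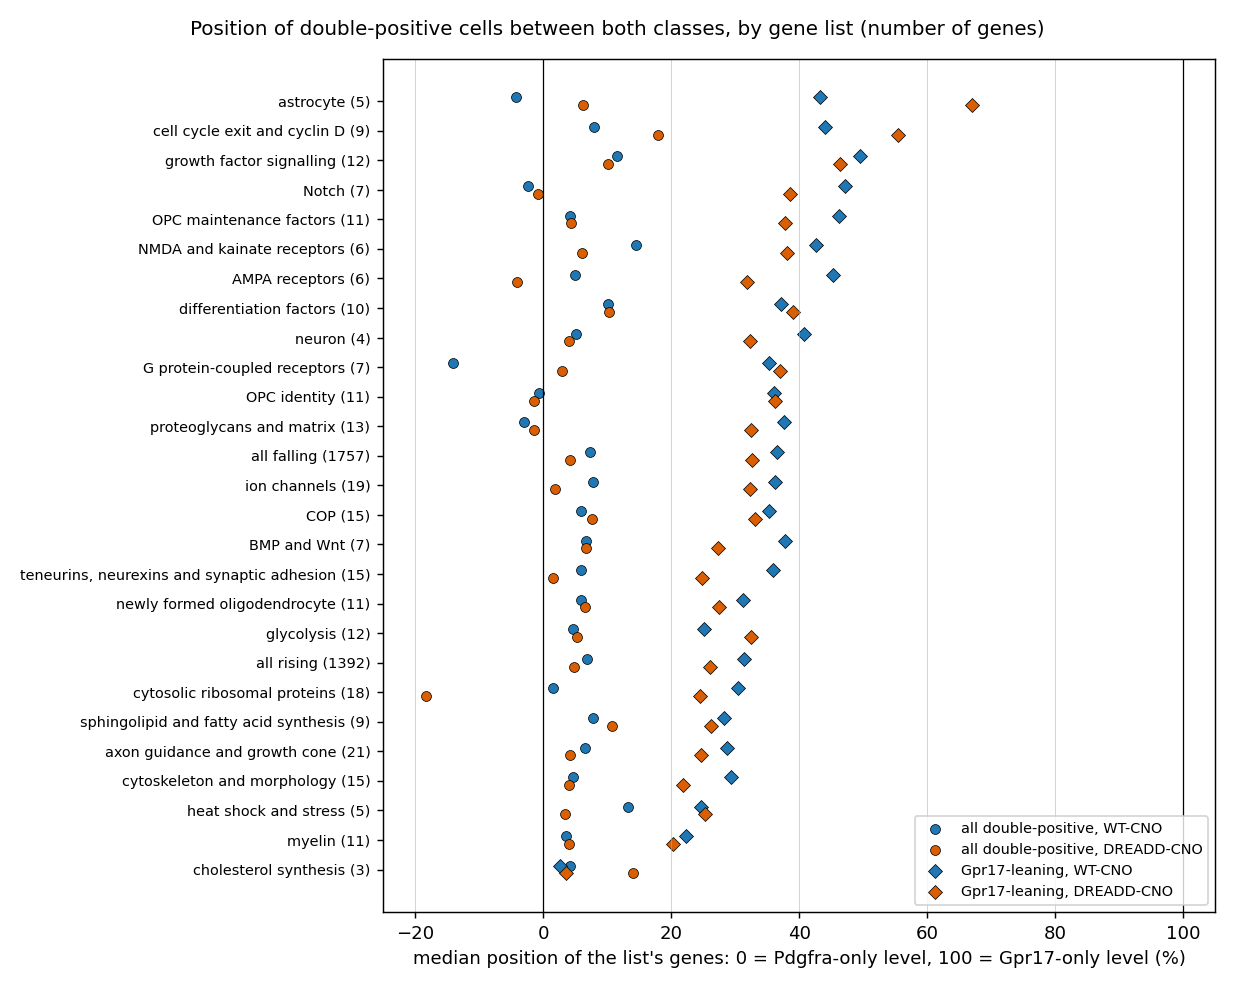
Median position of each list's genes on the x axis, in percent of the way from the Pdgfra-only level (0) to the Gpr17-only level (100), for all double-positive cells (circles) and Gpr17-leaning cells (diamonds), by library (colour); the number of genes is in parentheses on the y axis. The circles lie near 0 and most diamonds between 20 and 56, with myelin genes at 22.3 and 20.3 and growth factor signalling genes at 49.5 and 46.3.

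The programs did not stand at 1 place in Gpr17-leaning cells. Over the 3149 genes they had a median position of 33.6 in WT-CNO and 29.5 in DREADD-CNO, with a 10th to 90th percentile of 11.99 to 58.8 and 5.79 to 56.7. Pdgfra and Gpr17 were left out of the lists. Growth factor signalling genes (12 genes) stood at 49.5 and 46.3, Notch genes (7) at 47.2 and 38.5, cell cycle exit and cyclin D genes (9) at 44.0 and 55.5, COP genes (15) at 35.2 and 33.0, and myelin genes (11) at 22.3 and 20.3. All 12 growth factor signalling genes fall from Pdgfra-only to Gpr17-only cells, and all 11 myelin genes rise. Over all falling genes the median was 36.5 and 32.7, and over all rising genes 31.3 and 26.1. The median of the growth factor and Notch lists was further along than that of the myelin list, although 1 of the 7 Notch genes rises and their 10th percentile was -28.0 and -59.2. Without the highest Scrublet scores all 3 of these lists stood nearer the Pdgfra-only side, growth factor signalling at 42.2 and 34.5, Notch at 39.8 and 37.1, and myelin, still the lowest of the 3, at 16.6 and 9.99. All falling genes stood at 28.7 and 19.9 in the same cells, and all rising genes at 20.5 and 12.2. Positions of different lists share cells and libraries and were not tested against each other.

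Single genes were spread more widely than the lists, in both directions. Genes were ranked that differed at least 4-fold between the 2 outer classes and reached 100 CPM in 1 of them. Neu4 was furthest along of the 99 that rise, at 67.3 and 69.8, beside Elf1, an Ets factor, at 57.2 and 42.6, Cdkn1c at 44.0 and 56.5, and Shisal1 at 43.3 and 50.6. Mag at 14.0 and 20.3, Lpar1, a lysophosphatidic acid receptor, at 16.3 and 19.7, Cldn11 at 18.3 and 20.4, and Arpc1b, a subunit of the actin-nucleating Arp2/3 complex, at 15.1 and 14.7 had moved least. Of the 210 genes that fall, Ccnd2 at 77.0 and 75.6, Creb5, a transcription factor, at 74.2 and 73.5, Inpp4b at 70.5 and 70.3, and Sox9 at 65.7 and 66.9 had gone furthest. Tenm1, a teneurin, at 9.37 and -6.77, Grin3a, an NMDA receptor subunit, at 11.4 and 3.23, and the potassium channel Kcnb2 at 16.7 and -6.36 were still at or near the Pdgfra-only level. In Gpr17-leaning cells the sums of Ccnd2 and Inpp4b thus lay toward the Gpr17-only end, and those of Tenm1 and Grin3a at the Pdgfra-only end.

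A small group of genes peaked in Gpr17-leaning cells instead of lying between the outer classes. With all barcodes, 2 genes (0.0311% of 6426) were higher than in both Pdgfra-only and Gpr17-only cells in both libraries: Gabrg3, the γ3 subunit of the GABA-A receptor, and Glis1, a zinc-finger transcription factor. Gabrg3 stood at 126 CPM in WT-CNO, against 73.6 and 66.0 in Pdgfra-only and Gpr17-only cells, and at 110 against 57.7 and 65.5 CPM in DREADD-CNO. Glis1 stood at 47.5 against 29.8 and 31.2 CPM, and at 48.4 against 19.9 and 30.2 CPM. The 1 gene (0.0156%) lower than in both was Cemip2, a hyaluronidase of the cell surface, at 9.6 against 23.2 and 88.2 CPM, and at 11.6 against 22.8 and 57.2 CPM.

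Without the barcodes of the highest Scrublet scores, a comparison chosen after the data were seen, 8 genes (0.129% of 6218) were above both classes and 2 (0.0322%) below both. It left 156 Gpr17-leaning cells in WT-CNO and 162 in DREADD-CNO. Dll3 was among the 8, at 90.2 CPM in WT-CNO against 59.1 in Pdgfra-only, 64.9 in Pdgfra-leaning and 27.2 in Gpr17-only cells, and at 78.3 against 37.8, 42.7 and 23.3 CPM in DREADD-CNO. Its ratio to Pdgfra-only cells was 1.53 (1.29 to 1.80) and 2.07 (1.75 to 2.45). Of the markers that come with the label, Dll3 was the one with its highest level in these cells, while Gap43 stood at 136 against 150 and 143 against 165 CPM in Pdgfra-only cells, and Draxin, at 12.2 and 9.3 CPM, stayed under the minimum of 20. With all barcodes Dll3 stood at 80.5 and 60.1 CPM in Gpr17-leaning cells.

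The other members of this group have varied functions. Chgb, a granin of secretory granules, stood at 127 and 111 CPM in Gpr17-leaning cells, against 71.7 and 66.9 in Pdgfra-only and 27.1 and 25.5 in Gpr17-only cells. Lrrn1, a leucine-rich repeat membrane protein, stood at 179 and 167 CPM against 114 and 95.6, and 94.0 and 77.9. Sema5b, a semaphorin of axon guidance, stood at 402 and 370 CPM against 257 and 216, and 231 and 226. Pdgfra-leaning cells held intermediate levels of these 3 genes. Asic1, an acid-sensing ion channel, stood at 65.4 and 60.8 CPM against 33.3 and 34.0, and 41.7 and 38.9, and Ccdc88c, a regulator of Wnt signalling, at 93.9 and 74.8 CPM against 62.0 and 45.5, and 46.4 and 49.7. Gabrg3 at 138 and 135 CPM and Glis1 at 53.7 and 51.1 CPM made up the 8. Below both were Cemip2 and Rhbdl3, a rhomboid-like membrane protein, the latter at 11.7 against 26.3 and 25.6 CPM, and at 19.3 against 30.6 and 32.3 CPM. The call depended on the cells: within ribosomal-rich cells Gabrg3 alone of these was above both classes, within ribosomal-poor cells Chgb, joined by Ggh, a folate hydrolase, and within female or male cells none, where the smaller library had 34 and 15 Gpr17-leaning cells.

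**Figure D4:**
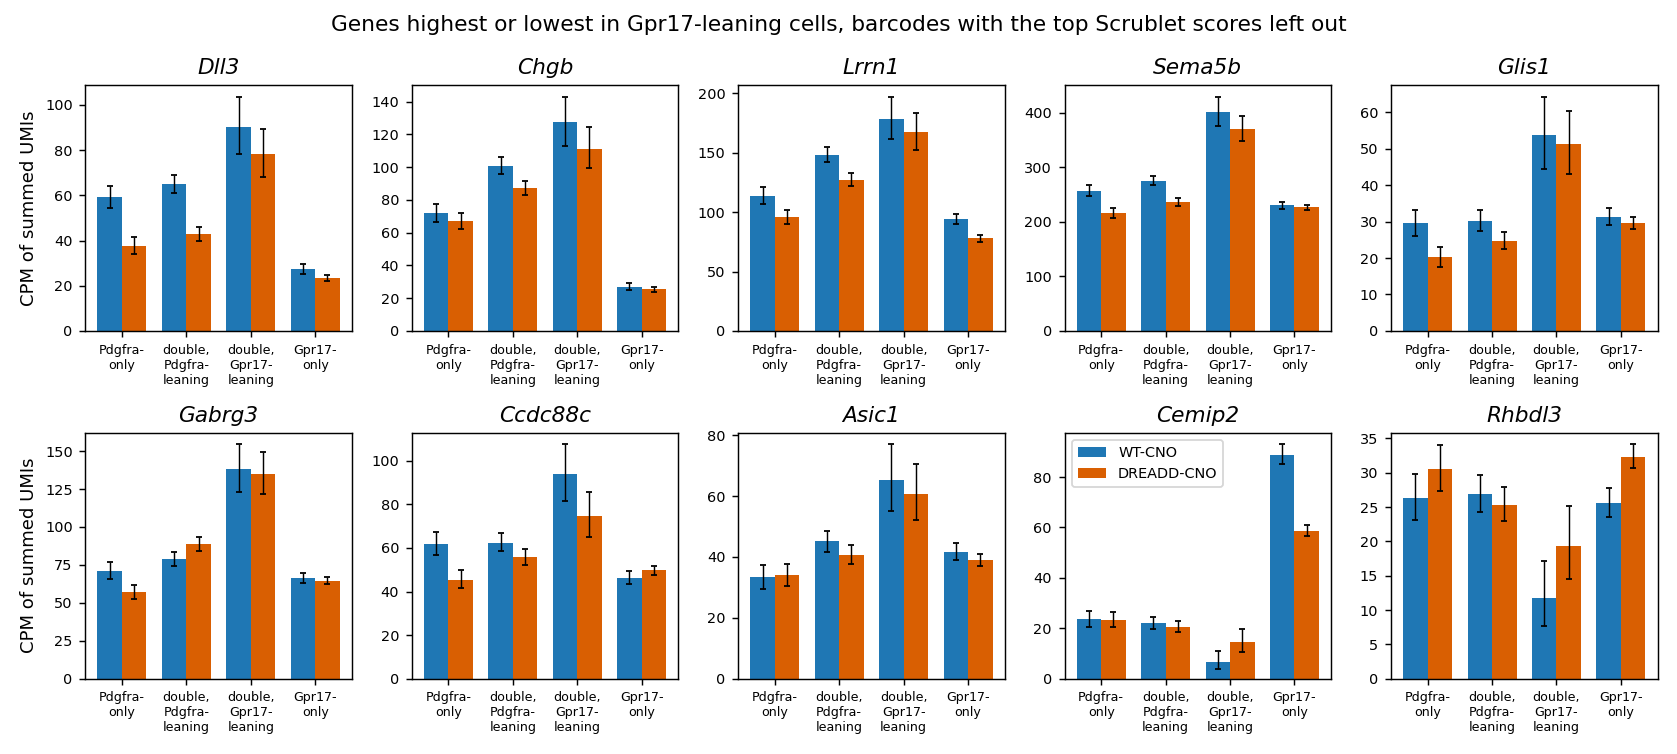
CPM on the y axis of the 10 genes above or below both outer classes in Gpr17-leaning cells, for Pdgfra-only, Pdgfra-leaning, Gpr17-leaning and Gpr17-only cells by library, without the barcodes of the highest Scrublet scores; bars show 95% counting intervals. Dll3 reaches 90.2 and 78.3 CPM in Gpr17-leaning cells and falls to 27.2 and 23.3 in Gpr17-only cells, while Cemip2 is lowest in Gpr17-leaning cells, at 6.8 and 14.7.

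The genes whose levels were most like that of Dll3 were ranked over 6 sums, the 3 classes in each of the 2 libraries. Zyg11b and Tmem175 had a correlation with Dll3 of 0.997, Vkorc1l1 of 0.996, and Urgcp, Tra2a and Apc2 of 0.995. The 6 points share their cells' depth and libraries, and so few points give high values to many genes.

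The last comparison set double-positive cells of the DREADD library, from pups whose Cre places the inhibitory receptor in neurons, beside those of the wildtype library. With 1 pool a group it compares 2 libraries and has no replicate check. By the same minimum level and ratio, 44 genes (0.571% of 7710) were higher in DREADD-CNO and 23 (0.298%) lower. In Pdgfra-only cells the same rule called 639 (8.25%) and 71 (0.916%), and in Gpr17-only cells 6 (0.0849%) and 48 (0.679%). Pdgfra-only cells of DREADD-CNO also held endothelial markers at 88.5 and fibroblast markers at 188 CPM, far above the double-positive cells, and the part of such cells in those 639 was not tested. Of the 44 genes, 34 were past the rule in Pdgfra-only cells too and 5 in Gpr17-only cells, and of the 23 lower genes 14 and 3. Within ribosomal-rich double-positive cells the rule called 23 genes (0.294%) higher and 20 (0.256%) lower, and 8 of the 44 had a ratio of 1.5 or more there. Within ribosomal-poor cells it called 20 (0.279%) and 31 (0.433%), and 9 of the 44 had such a ratio. Within female cells it called 92 (1.19%) and 58 (0.75%), and within male cells 698 (9.31%) and 35 (0.467%).

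Immediate early genes, whose transcription starts within minutes of many stimuli, had 3 of 6 members higher in the DREADD library, with a median log2 ratio of 0.47 beside 0.01 over all genes. The median of the list was 0.20 in ribosomal-rich cells and 0.08 in ribosomal-poor cells, where 3 of 5 genes were higher in value. Only Fos and Egr1 were past the rule in each of these subsets. In female cells the median was 0.43 and in male cells 0.80. Fos went from 14.7 to 35.8 CPM, a ratio of 2.43 (2.12 to 2.79), and Egr1 from 78.3 to 181 CPM, a ratio of 2.32 (2.18 to 2.46). Ier2 went from 14.1 to 21.5 CPM. For Fos the ratio was 2.11 in ribosomal-rich, 2.17 in ribosomal-poor, 2.57 in female and 2.96 in male cells, and for Egr1 2.01, 1.95, 1.86 and 5.10. Fos and Egr1 were thus higher in each of these subsets, but in the 144 and 119 cells with Gpr17 at 10 per 10000 or more Fos had 0.906. In Pdgfra-only cells Fos had a ratio of 3.44 and Egr1 of 2.35, in Gpr17-only cells 1.38 and 1.41, and in microglial barcodes, where Fos stood at 2142 and 2420 CPM, 1.13 and 1.24. RNA of other cells as a source was not tested.

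The gene with the highest ratio was Ttr, the thyroid hormone carrier made by the choroid plexus, at 0.718 CPM in WT-CNO and 29.5 CPM in DREADD-CNO. Microglial barcodes held it at 0.57 and 34.3 CPM and Gpr17-only cells at 0.0899 and 26.9 CPM, so its difference was not limited to double-positive cells. Other higher genes were Prxl2b, a prostaglandin F synthase, from 20.8 to 36.8 CPM, Wipi1, an autophagy protein, from 19.4 to 31.9 CPM, and Tmsb15b2, an actin-binding thymosin, from 11.8 to 20.02 CPM. The calcium-binding proteins S100a6 and S100a4 had ratios of 1.60 and 1.59, Trnp1, a nuclear protein of progenitors, 1.59, and Selenom, a selenoprotein of the endoplasmic reticulum, 1.58. The ratios of S100a6 were 1.26 in ribosomal-rich and 1.13 in ribosomal-poor cells, and those of S100a4 1.37 and 1.03, so both were below 1.5 when cells of like ribosomal content were compared.

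Of the genes lower in the DREADD library, Tmem117, a transmembrane protein, went from 25.1 to 10.4 CPM, a ratio of 0.414 (0.352 to 0.486). Ror2, a receptor for Wnt5a, went from 25.4 to 11.1 CPM, and Hmga2, a chromatin protein of early progenitors, from 28.4 to 12.6 CPM. Tenm2, a teneurin that binds latrophilins across synapses, was the most abundant of them and went from 404 to 231 CPM, a ratio of 0.572 (0.552 to 0.593). Pde1a and Pde1c, which break down cyclic nucleotides under control of calmodulin, had ratios of 0.626 and 0.642, Gpr149, an orphan receptor, 0.623, and Sncaip, the synuclein-binding synphilin, 0.604. Ebf1, a transcription factor, had 0.593. Kdm6a, a histone demethylase on the X chromosome, had 0.641, beside the unequal share of female cells. The sexes gave different sizes for several: Tenm2 had 0.512 in female and 0.858 in male cells, Ror2 0.353 and 0.903, Hmga2 0.416 and 0.676, and Ebf1 0.648 and 1.12. Hmga2 and Tenm2 were also lower in Pdgfra-only cells, with 0.445 and 0.568. Tenm2 was past the rule as lower in Gpr17-only cells too. Among double-positive cells it was past the rule in ribosomal-rich but not in ribosomal-poor cells.

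**Figure D5:**
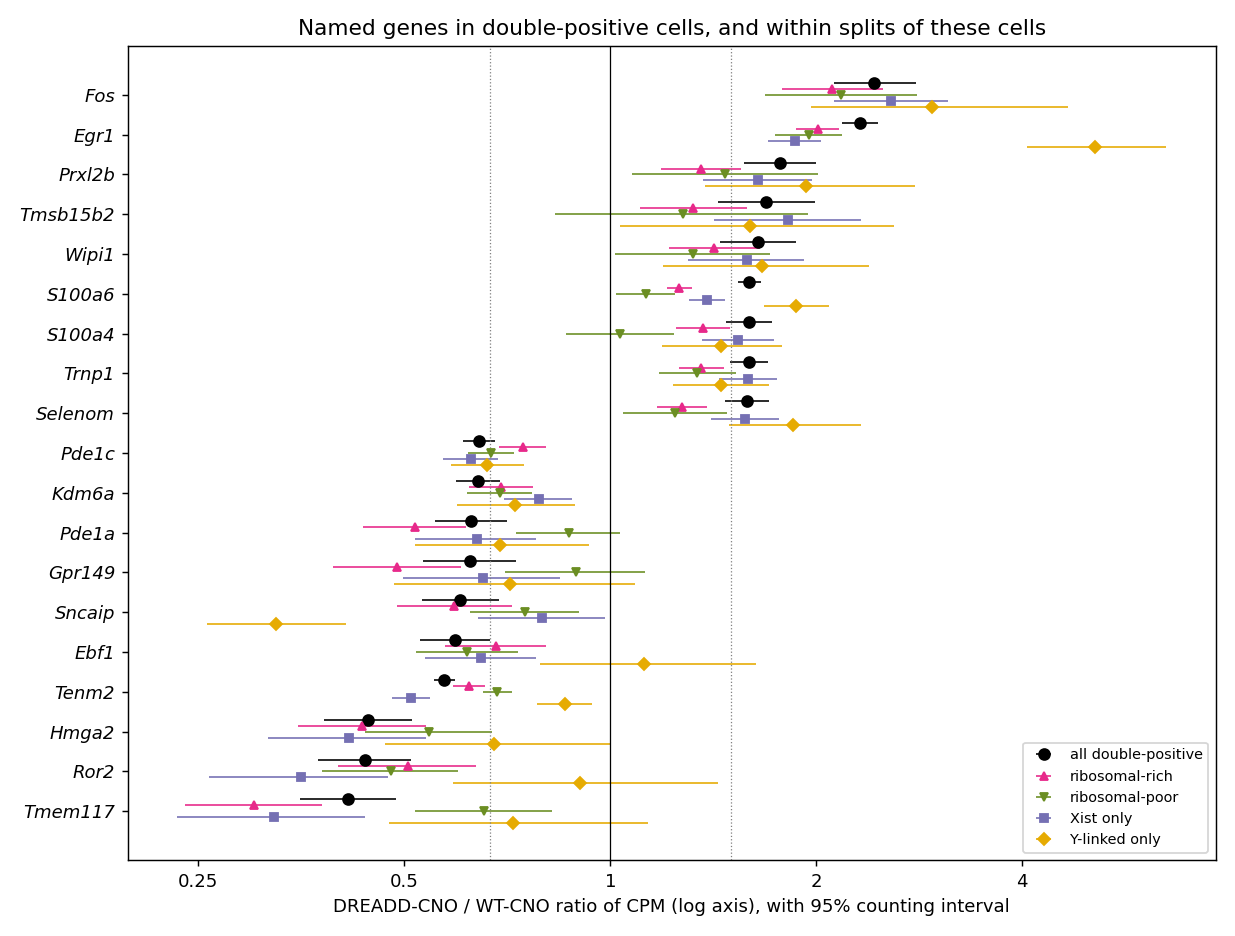
Ratio of DREADD-CNO over WT-CNO on a log axis for 19 named genes, in all double-positive cells and in their ribosomal-rich, ribosomal-poor, female (Xist only) and male (Y-linked only) cells; bars are 95% counting intervals and dotted lines mark the ratio of 1.5 and its inverse. Fos and Egr1 lie above 1.5 in all 5 sets of cells, and Ror2 lies at 0.353 in female and 0.903 in male cells.

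Glutamate receptor and commitment genes were set side by side between the libraries. None of the 9 AMPA receptor genes was past the rule: Gria1 stood at 143 and 125 CPM, a ratio of 0.874 (0.829 to 0.922), Gria2 at 1244 and 1217 (0.979), Gria3 at 585 and 571 (0.977), and Gria4 at 734 and 666 (0.907). The counting intervals of Gria1 and Gria4 lie below 1, but in ribosomal-poor cells their ratios were 1.02 and 1.01. Of the NMDA and kainate receptor genes 9 of 9 were lower in value in DREADD-CNO, with a median log2 ratio of -0.16, and of the ion channel genes 17 of 21, with a median of -0.10, beside 0.01 over all genes. None of them was past the rule, which 0.298% of all genes passed on the lower side. In ribosomal-poor cells 15 of the 21 ion channel genes were higher in value, with a median of 0.03. The median of the NMDA and kainate receptor genes was -0.09 there, with 7 of 9 lower. In ribosomal-rich cells 16 of 21 ion channel genes (median -0.08) and 8 of 9 NMDA and kainate receptor genes (-0.13) were lower. Of the markers of commitment, Bmp4 had a ratio of 1.31, Enpp6 1.38 and Neu4 1.41, all below 1.5, and Dll3 had 0.695. Enpp6 was past the rule as lower in ribosomal-poor cells, but Enpp6 and Bmp4 were past it as higher in male cells. Of the COP list 11 of 16 genes were lower in value in ribosomal-poor cells, 11 of 17 in female and 5 of 17 in male cells. Mag was past the rule at 1.59, but it had 0.684 in ribosomal-poor and 1.07 in female cells. Of the Notch pathway Nrarp, a feedback inhibitor, had 1.51, and of cholesterol synthesis Idi1, an isoprenoid isomerase, had 1.54.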

How the data were processed

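The deposited matrices hold UMI counts per gene and barcode for 32285 genes in 2 libraries, which the authors produced in Cell Ranger 7.1.0, per the submitters' processing notes. The genome build is not given in the sources used here, and no reads were used. Members and gene lists were chosen with earlier results of these data known.

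For each class and library the counts of all cells were added up and scaled to CPM. No p-value was computed, since each group is 1 library and cells are not replicates. A gene was past the rule at 20 CPM and 100 UMIs or more on the higher side, a ratio of at least 1.5 and an exact 95% binomial counting interval without 1, and between classes in both libraries. Intervals are Clopper-Pearson for shares and Newcombe for a difference of shares. Poisson intervals are exact. The rule was tested on simulated data. Depth checks thinned cells to 5000 UMIs. Doublet scores came from Scrublet in scanpy 1.11.5, and the barcodes with the highest scores were taken at 0.8% per 1000 barcodes. Trimmed-mean scaling used edgeR 4.0.16 in R 4.3.3, and the rest Python 3.11.15, numpy 2.4.6 and scipy 1.17.1. Ratios used in ranking had 1 CPM added.

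Named genes were the 5 label markers and the AMPA subunits, genes above or below both outer classes, the 8 highest and 8 lowest against each class, the 10 highest and 10 lowest between libraries, and, of lists described, the most abundant or most changed. Gene models, sex-linked, haemoglobin and mitochondrial genes were left out of ranks. One gene that the rule names is not reported here. Of 542 list entries 538 were found. The Gpr17-leaning split, the groups by Gpr17 share, the Gpr17 threshold of 10 and the Gpr17-leaning comparison without the highest Scrublet scores were chosen after seeing the data, as were genes named only for their place between the outer classes.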

Additional observations from a re-analysis of the deposited data

Results flagged for a closer look

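For 4 genes, all among the 21 higher in double-positive than in Pdgfra-only cells, the sexes differed in direction between the libraries. The ratio of DREADD-CNO over WT-CNO lay above 1.5 in male double-positive cells (Y-linked UMIs and no Xist). In female ones (Xist and no Y-linked UMIs) it lay below the inverse of 1.5. St18, a zinc-finger transcription factor, had 6.03 in male and 0.664 in female cells. Cldn11, the tight junction protein of myelin, had 3.65 and 0.517, and Frmd4a, a scaffold protein, 3.57 and 0.373. The gene model 9530059O14Rik had 3.37 and 0.533. The difference between the sexes was not tested, as each sex comes from 1 pool per group. Male cells were 10.6% of double-positive cells in WT-CNO and 61.8% in DREADD-CNO.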

How the results depend on the processing

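No paired analysis was possible because each group has 1 library. For the same reason no replicate could be left out. The share of double-positive cells, -9.81 points in DREADD-CNO against WT-CNO, was -6.93 with at most 5% mitochondrial UMIs, -6.29 in ribosomal-rich and -2.005 in ribosomal-poor cells, -3.15 with Gpr17 at 10 per 10000 or more, and -1.49 counting only Gpr17-leaning cells.

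Genes higher than in Pdgfra-only cells, 21, became 37 at thresholds of 2 per 10000, 5 with thinned cells, 8 without the highest Scrublet scores, 61 in ribosomal-rich and 4 in ribosomal-poor cells, 2 in female and 4 in male cells, 37 with minimums of 5 CPM and 25 UMIs, 61 with none, 6 at a ratio of 2, 153 with Gpr17 at 10 or more, and 260 in Gpr17-leaning cells. Lower genes, 2, became 6 at thresholds of 5 per 10000, 5 at 3 UMIs, 1 thinned, 5 from 8000 UMIs, 5 at 5% mitochondrial UMIs, 10 ribosomal-rich, 1 ribosomal-poor, 0 female, 1 male, 6 with 5 Olig UMIs, 9 at the lower minimums, 39 with none, 0 at a ratio of 2, 165 with Gpr17 at 10 or more, and 334 Gpr17-leaning.

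Genes higher than in Gpr17-only cells, 1783, became 1026 in ribosomal-poor and 1094 in male cells, 2822 at the lower minimums, 4279 with none, 939 with Gpr17 at 10 or more, and 1022 Gpr17-leaning. Lower genes, 1371, became 905 ribosomal-rich, 509 ribosomal-poor, 2384 by trimmed mean of M values, 2096 with no minimum, 565 at a ratio of 2, and 702 Gpr17-leaning. Genes above both classes, 0, became 1 ribosomal-rich, 1 with no minimum, 6 with Gpr17 at 10 or more and 2 Gpr17-leaning. Genes below both, 0, became 1 at the lower minimums, 2 with none, 2 with Gpr17 at 10 or more and 1 Gpr17-leaning.

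Genes higher in DREADD-CNO, 44, became 69 at 5 per 10000, 290 thinned, 23 ribosomal-rich, 20 ribosomal-poor, 92 female, 698 male, 136 at the lower minimums, 430 with none, 7 at a ratio of 2, 80 with Gpr17 at 10 or more and 137 Gpr17-leaning. Lower genes, 23, became 63 thinned, 58 female, 35 male, 104 at the lower minimums, 409 with none, 5 at a ratio of 2, 73 with Gpr17 at 10 or more and 47 Gpr17-leaning.

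Ratios that changed side were, between libraries, Fos at 0.906 and Gpr149 at 1.57 with Gpr17 at 10 or more (144 and 119 cells) and Ebf1 at 1.12 in male cells. Against Pdgfra-only cells, taking the library nearer 1, they were Enpp6 at 0.579, Mag at 0.636 and St18 at 0.766 in female cells, Mag at 0.515 and Plxnb3 at 0.824 in male cells, and Mag at 0.835 in ribosomal-poor cells. The causes were not tested. Low minimums and subsets change how many genes can pass. With Gpr17-leaning and male cells the sums are small, so ratios near 1.5 are not resolved.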
